A study of Bos taurus and Sus scrofa with 10 samples.

Results

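The genes described here encode the parts of meiotic cohesin, of the spindle assembly checkpoint and of the Aurora kinase family. They were chosen by symbol from a list of 10: REC8, SMC1B, STAG3, RAD21, BUB1, BUB1B, MAD2L1, AURKA, AURKB and AURKC. These 10 and the related lists below were chosen with earlier results of these data known. Setting their counts and medians beside those of all genes is therefore no independent comparison. All 10 had a row among the 22845 rows of the cow table, and 7 had one among the 21867 rows of the pig table, out of 28050 different names over both tables. BUB1B, AURKA and AURKC were not analysed here in pig. No symbol of the list had a second row.

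RNA sequencing of total RNA covered oocytes, 2-4 cell embryos, 8-16 cell embryos, morulae and blastocysts of 2 species, Bos taurus (cow) and Sus scrofa (pig). Every group was 1 library, so there was no spread between replicates, no test was possible, and intervals below are 95% intervals for counting error only. The maturity of the oocytes, how the embryos were produced and how many entered a library are not given in the sources used here. Values are RPM, the reads of a gene per 1000000 reads in its library, with no division by gene length. A gene is therefore compared between stages and not with another gene. The exceptions are percentiles and read ratios, whose size also depends on gene length.

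Cohesin is a ring of SMC proteins closed by a kleisin subunit and bound by a STAG subunit, and it holds sister chromatids together until separase cuts the kleisin. Germ cells use meiotic subunits: the kleisin REC8 in place of RAD21, SMC1B in place of SMC1A, and STAG3 in place of STAG1 or STAG2. In mammalian oocytes cohesion is laid down before the long meiotic arrest and has to last through it. The spindle assembly checkpoint, with the kinase BUB1, with BUB1B (BUBR1) and with the MAD2 protein made from MAD2L1, delays anaphase until chromosomes are attached. AURKA acts at spindle poles, AURKB acts at centromeres and the midzone in the chromosomal passenger complex, and AURKC is its germline relative, known from oocytes and early embryos. Cleavage embryos pass from meiotic to mitotic division on stored maternal RNA before their own genome takes over.

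Read totals ranged from 3002751 (pig morula) to 14182046 (cow blastocyst). A library with 0 reads of a gene allows up to 3 reads, a limit between 0.212 RPM (cow blastocyst) and 0.999 RPM (pig morula). The share of reads from mitochondrial genes lay between 2.74% and 30.2% in cow and between 6.06% and 18.6% in pig, highest in both blastocyst libraries, and a larger share lowers the RPM of all other genes. Of 11 oocyte markers with a row, 11 fell in cow and 10 in pig from oocyte to blastocyst, and 10 of 11 blastocyst markers rose in each species. The exceptions were FIGLA in pig, with 1.18 RPM in the oocyte library and 0 reads in the blastocyst library, and ATP1B1, which fell in cow from 104.9 to 5.99 RPM and was at 14.2 and 6.17 RPM in pig. The 12 markers of cumulus cells, the somatic cells around the oocyte, summed to 412, 350, 68.3, 80.5 and 1005 RPM over the 5 cow stages. In pig 11 such markers summed to 184, 148, 219, 374 and 2153 RPM. FOXL2 was at 0 reads in all 5 cow libraries, while PTGS2 alone gave 902 RPM of the cow and 1809 RPM of the pig blastocyst sum. By the threshold given below, 3 of 10 compared cow markers of these cells rose and 3 fell from oocyte to blastocyst. For pig, 2 of 9 rose and 3 fell. The part of such cells in the results below was not tested.

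Among the 10 genes SMC1B and STAG3, the 2 meiotic subunits with more than a few reads, fell from oocyte to blastocyst in both species. AURKA fell in cow. RAD21L1, a germline kleisin outside the 10, went the other way in cow, from 0 reads to 36.7 RPM. In whole embryos, fewer cells of a type and less RNA per cell cannot be told apart. A gene was called changed at a difference of 2 or more in log2(RPM + 1), which is 4-fold on that scale, when at least 1 library of the pair had 1 RPM; this scale understates the change of low genes. In cow 3 of 9 compared members were called lower and 0 higher, against 18.4% of all compared genes lower and 21.8% higher. In pig 2 of 6 were called lower and 0 higher, against 19.2% and 26%. The median difference of the members was -1.53 in cow and -1.12 in pig, beside 0.18 and 0.43 over all compared genes. REC8 was at 3 reads or fewer in all 10 libraries and entered no comparison.

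**Figure D1:**
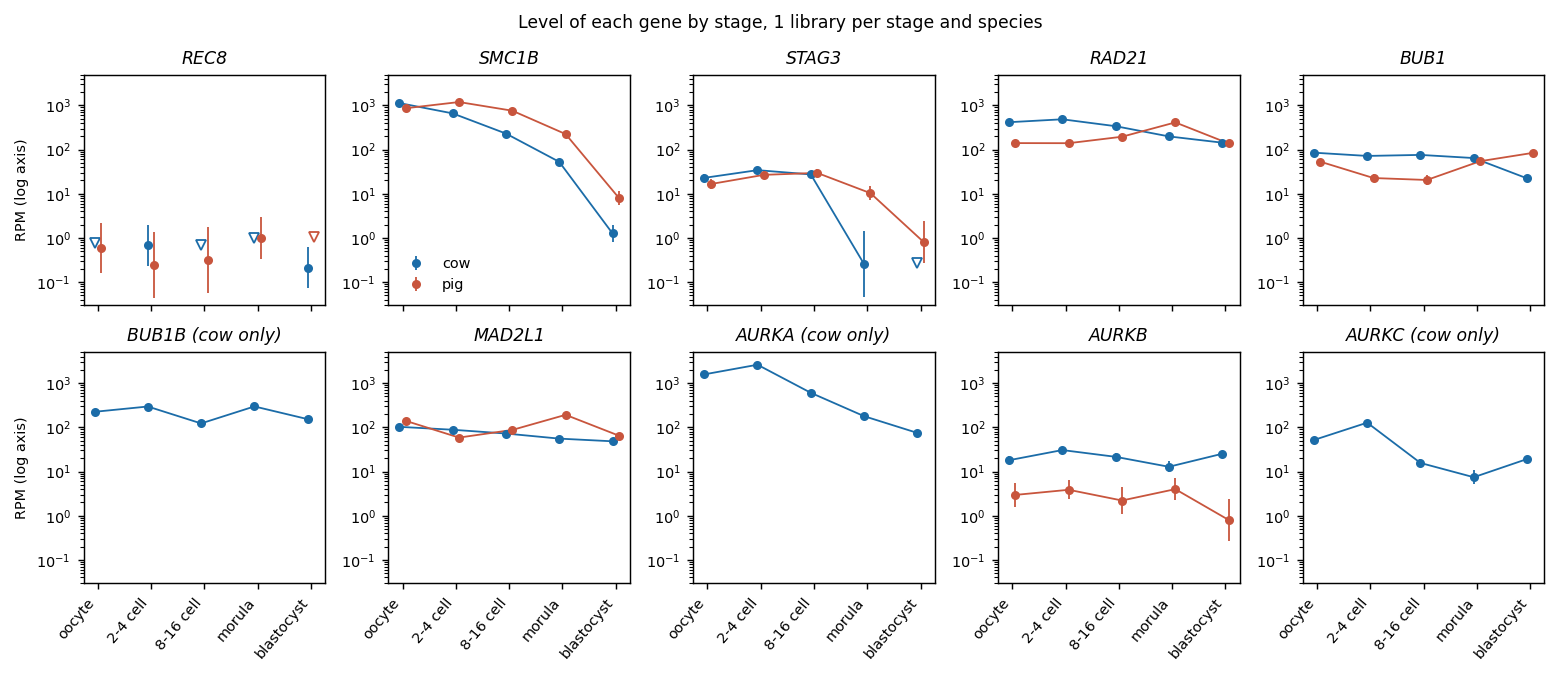
Level of each gene (RPM, log axis) against stage, 1 point per library, cow in blue and pig in red; bars are 95% Wilson counting intervals and open triangles mark the upper Wilson limit where a library had 0 reads. In cow SMC1B starts at 1130 RPM and ends at 1.27 RPM, whereas BUB1B stays between 123 and 298 RPM.

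SMC1B, the SMC1 subunit of meiotic cohesin, lies on cow chromosome 5, 116464171 to 116545914, minus strand, and on pig chromosome 5, 3976157 to 4068932, plus strand. Positions are as the authors' tables give them; the submitters' processing notes name the builds UMD3.1 for cattle and Sscrofa11.1 for pig. Its cow level (RPM) was 1130 in oocytes, 660 in 2-4 cell embryos, 231 in 8-16 cell embryos, 52.8 in morulae and 1.27 in blastocysts. No 2 of these intervals overlapped, and each library was below the one before. The blastocyst level was 891-fold below the oocyte level (563-fold to 1504-fold), a difference of -8.96.

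The pig levels of SMC1B (RPM) were 863 in oocytes, 1192 in 2-4 cell embryos, 759 in 8-16 cell embryos, 224 in morulae and 8.04 in blastocysts. The 2-4 cell library was thus the highest, 1.38-fold above the oocyte (1.32 to 1.45), and the other stages followed in order with no overlap of intervals. From oocyte to blastocyst the fall was 107-fold (75.02 to 159), a difference of -6.58. The span of pig SMC1B shares 203 bases with that of RIBC2 on the other strand, and RIBC2 had at most 2.96 RPM in any pig library.

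SMC1B levels relative to the oocyte library were not the same in both tables. The cow 8-16 cell library had 20.4% of the oocyte level (19.2% to 21.7%), and the cow morula library 4.67% (4.05% to 5.37%). In pig the 8-16 cell library had 87.9% (83.2% to 92.8%) and the morula library 26% (23.9% to 28.3%). These are ratios of RPM, a share of a library, and not amounts of RNA per embryo. In the oocyte libraries SMC1B stood at percentile 99.7 of the cow genes with reads and at percentile 99.1 of the pig genes. In the blastocyst libraries it stood at percentile 19.2 and 34.9. These percentiles rank genes by RPM without regard to gene length. Whether the species differ was not tested, as each had 1 library a stage.

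STAG3, the STAG subunit specific to meiotic cohesin (cow chromosome 25, 36741209 to 36770974, minus strand; pig chromosome 3, 8176937 to 8209760, plus strand), kept its level longer than SMC1B in cow and then was almost without reads. Its cow values were 22.9, 34.2 and 27.4 RPM in the oocyte, 2-4 cell and 8-16 cell libraries, 1 read in morulae and 0 reads in blastocysts. The first 3 stages stood apart from the last 2, while the 8-16 cell interval overlapped both of its neighbours in level. Between 8-16 cells and the morula there was a 107-fold fall (18.9 to 4252, resting on 1 read), and the blastocyst library was at least 108-fold below the oocyte library.

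Pig STAG3 (RPM) was at 16.6 in oocytes, 26.8 in 2-4 cell embryos, 29.7 in 8-16 cell embryos, 10.3 in morulae and 0.804, which is 3 reads, in blastocysts. The 2-4 cell and 8-16 cell libraries were the highest and overlapped each other. The fall from oocyte to blastocyst was 20.6-fold (6.70 to 103), a difference of -3.28. With a pseudocount of 5 RPM in place of 1 this difference was -1.89 and no longer called.

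REC8, the meiotic kleisin, had 0, 3, 0, 0 and 3 reads over the 5 cow stages and 2, 1, 1, 3 and 0 reads over the 5 pig stages (cow chromosome 10, 20810613 to 20816425; pig chromosome 7, 75118744 to 75139630, both minus strand). Every library was at or under the limit of 3 reads, so no order of the stages and no fold can be given. This holds for the oocyte libraries as well, where SMC1B had 5573 reads in cow and 2916 reads in pig. The counts do not show that REC8 RNA is absent, and they say nothing about REC8 protein.

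RAD21, the kleisin of mitotic cohesin, was not called at any step in either species. It lies on cow chromosome 14, 49558483 to 49588327, and pig chromosome 4, 21720896 to 21803380, plus strand in both. In cow it was at 417, 485, 339, 199 and 143 RPM from oocyte to blastocyst, with no overlap of neighbouring intervals after the 2-4 cell peak. The cow blastocyst level was 2.90-fold below the oocyte level (2.73 to 3.09). In pig the values were 140.3, 139.7, 196, 413 and 138 RPM, so that the morula library stood alone at the top, 2.94-fold above the oocyte library (2.64 to 3.28), and the oocyte, 2-4 cell and blastocyst libraries overlapped. The pig difference from oocyte to blastocyst was -0.03, and it lay between -0.30 and 0.09 under the other settings.

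**Figure D2:**
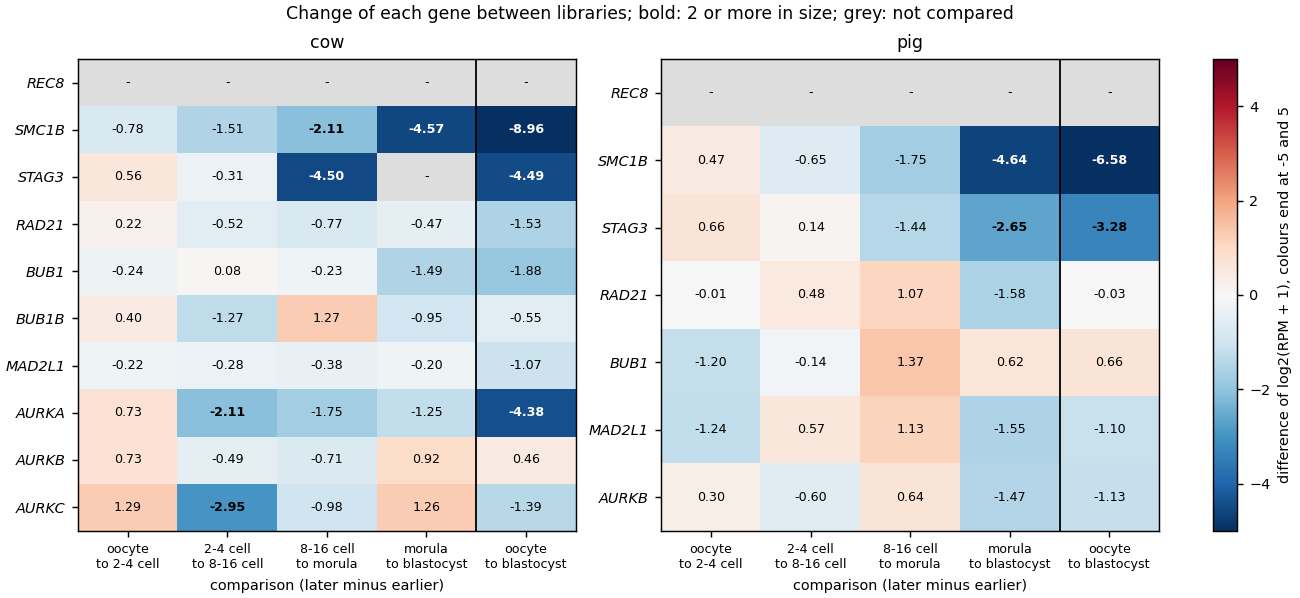
Difference of log2(RPM + 1), later minus earlier library, for each gene (rows) at the 4 consecutive steps and from oocyte to blastocyst (columns), cow left and pig right; numbers in bold are 2 or more in size and grey cells were not compared. In cow the bold cells start between 2-4 and 8-16 cells with AURKA (-2.11) and AURKC (-2.95), and in pig they appear at the last step with SMC1B (-4.64) and STAG3 (-2.65).

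Called members fell at different steps. At the first step, into the 2-4 cell stage, 0 of 9 cow members and 0 of 6 pig members were called, where 0.196% of all compared cow genes were called higher and 0.178% lower, and 3.26% and 2.17% in pig. Between 2-4 and 8-16 cells AURKA and AURKC fell in cow, 2 of 9 members against 14.6% of all genes lower and 12.6% higher. No pig member was called there, out of 6, against 0.543% of genes lower and 4.33% higher. Between 8-16 cells and the morula SMC1B and STAG3 fell in cow, 2 of 9 against 5.15% lower and 6.67% higher, and 0 of 6 pig members were called against 12% higher and 11.3% lower. At the last step, into the blastocyst, SMC1B fell in cow, 1 of 8 against 11.5% lower and 11.9% higher, and SMC1B and STAG3 fell in pig, 2 of 6 against 13.8% in each direction. No member was called higher at any step in either species.

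Each meiotic subunit was then set against its somatic counterpart by the ratio of their reads within a library. This ratio does not depend on how a library is scaled, and its change between stages does not depend on gene length. For SMC1A over SMC1B the cow ratio was 0.0203 in the oocyte library (0.0167 to 0.0244), 0.0590 at the 2-4 cell stage, 0.300 at the 8-16 cell stage, 1.97 in morulae and 142 in blastocysts (89.5 to 240). It moved toward SMC1A at every step, by 6990-fold in all. SMC1A rose in cow from 22.9 to 180 RPM, 7.85-fold (6.50 to 9.56), so both genes contributed.

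In pig the ratio of SMC1A to SMC1B was 0.123 in the oocyte library (0.110 to 0.138), 0.0823 at the 2-4 cell stage, 0.150 at the 8-16 cell stage, 0.518 in morulae and 20.8 in blastocysts (14.4 to 31.1). The whole change was 169-fold, and the greater part of it fell on the last step. Pig SMC1A itself differed by 0.65, from 107 to 168 RPM, and was not called. Its span overlaps RIBC1 on the other strand.

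The sum of STAG1 and STAG2 reads over STAG3 reads in cow was 8.11 in the oocyte library (6.66 to 9.95), 3.38 at the 2-4 cell stage (2.81 to 4.07), 20.7 at the 8-16 cell stage, 3959 in morulae (710 to 156411, resting on 1 STAG3 read) and at least 2008 in blastocysts. STAG2 moved most within the sum, over 12.8, 9.69, 524, 769 and 213 RPM by stage, a 16.7-fold rise from oocyte to blastocyst (13.0 to 21.7). Cow STAG1 differed by 0.29, from 173 to 212 RPM, with a low of 43.4 RPM at the 8-16 cell stage. In pig the ratio went from 6.20 (4.66 to 8.37) through 7.37, 15.3 and 76.2 to 336 in the blastocyst library (115 to 1634), 54.3-fold in all. Pig STAG1 and STAG2 differed by 1.38 and 1.37 and were not called. STAG1 overlaps SLC35G2 in pig on the other strand. RAD21 over REC8 gives no change, since REC8 was at 3 reads or fewer throughout.

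**Figure D3:**
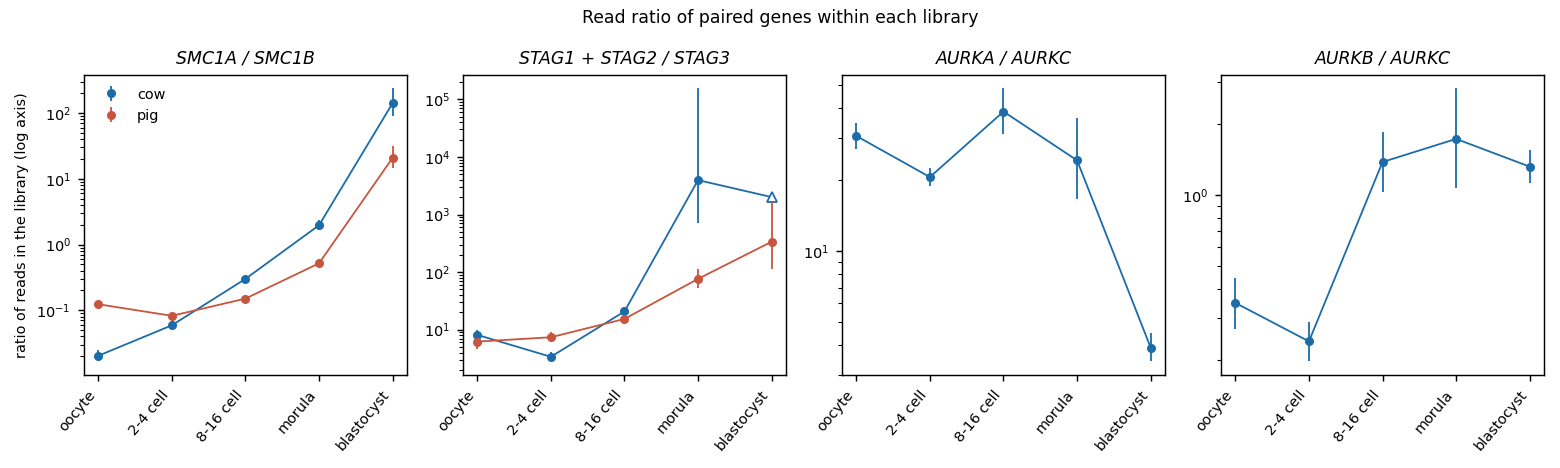
Ratio of reads of paired genes within each library (log axis) against stage, cow in blue and pig in red; bars are 95% exact binomial counting intervals and the open triangle is a lower bound from 0 STAG3 reads. The ratio of SMC1A to SMC1B climbs from 0.0203 to 142 in cow and from 0.123 to 20.8 in pig, and that of AURKA to AURKC in cow ends at 3.90 after 24.1 in the morula library.

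Among the checkpoint genes none was called at any step in either species. BUB1, the kinase that marks centromeric chromatin and recruits other checkpoint proteins, lies on cow chromosome 11, 1559190 to 1592162, and pig chromosome 3, 45585091 to 45626667, plus strand in both. Its cow levels were 85.2, 71.9, 75.8 and 64.4 RPM over the first 4 stages, which overlapped from one to the next in order of level, and 22.4 RPM in the blastocyst library, which stood below all of them. The blastocyst level was 3.81-fold below the oocyte level (3.29 to 4.42), a difference of -1.88. With median scaling of the libraries it was -2.06, past the threshold.

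Pig BUB1 (RPM) was at 53.3 in oocytes, 22.7 and 20.5 in the 2 cleavage libraries, 54.6 in morulae and 84.7 in blastocysts. The lowest values were those of the cleavage stages, and the blastocyst library was highest, 1.59-fold above the oocyte library (1.32 to 1.92). BUB1 thus differed by -1.88 in cow and by 0.66 in pig from oocyte to blastocyst, and the pig value stayed between 0.39 and 0.77 under the other settings.

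BUB1B, which binds CDC20 within the mitotic checkpoint complex, was compared in cow only (chromosome 10, 35903021 to 35958915, plus strand). Its levels (RPM) were 225 in oocytes, 296 in 2-4 cell embryos, 123 in 8-16 cell embryos, 298 in morulae and 153 in blastocysts. The 8-16 cell library was the lowest, and the 2-4 cell and morula libraries overlapped at the top. From the 8-16 cell stage to the morula it was 2.42-fold higher (2.20 to 2.67), and from oocyte to blastocyst 1.47-fold lower (1.36 to 1.58).

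MAD2L1, the checkpoint protein that changes shape on unattached kinetochores, lies on cow chromosome 6, 6013172 to 6020467, and pig chromosome 8, 103926967 to 103940623, plus strand in both. In cow it was at 103, 88.3, 72.5, 55.7 and 48.4 RPM from oocyte to blastocyst, each library below the one before, with overlap between all neighbours except the 8-16 cell and morula libraries. In pig it was at 140.3, 58.7, 87.5, 192 and 64.9 RPM, highest in the morula library. From oocyte to blastocyst it was 2.13-fold lower in cow (1.89 to 2.39) and 2.16-fold lower in pig (1.85 to 2.54). The pig levels of MAD2L1 and RAD21 thus both peaked in the morula library, 2.20-fold and 2.11-fold above the 8-16 cell library.

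AURKA, the spindle pole kinase, lies on cow chromosome 13, 60092043 to 60107177, plus strand. Ranked by RPM without regard to gene length, it stood at percentile 99.8 of the genes with reads in the cow oocyte library. Oocytes had 1581 RPM of it, 2-4 cell embryos 2617 RPM, 8-16 cell embryos 606 RPM, morulae 179 RPM and blastocysts 74.9 RPM. No intervals overlapped, the 2-4 cell library was the highest, and every later one was lower than the one before. From oocyte to blastocyst AURKA fell 21.1-fold (19.8 to 22.5), a difference of -4.38. The difference between 2-4 and 8-16 cells was -2.11, and it was -1.89 when scaled to non-mitochondrial gene reads and -1.75 with median scaling, under the threshold in both.

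AURKC, the germline Aurora kinase, lies on cow chromosome 18, 64598202 to 64602281, plus strand. Oocytes had 51.7 RPM, 2-4 cell embryos 128 RPM, 8-16 cell embryos 15.6 RPM, morulae 7.44 RPM and blastocysts 19.2 RPM. The 2-4 cell library stood above all others, 2.47-fold over the oocyte library (2.13 to 2.87), and the next step was an 8.16-fold fall (6.49 to 10.4). The blastocyst library was 2.58-fold above the morula library (1.76 to 3.92), a difference of 1.26, and 2.70-fold below the oocyte library (2.26 to 3.21).

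AURKB, the kinase of the chromosomal passenger complex, was not called in either species (cow chromosome 19, 28447634 to 28452478; pig chromosome 12, 53410969 to 53415427, both minus strand). In cow it was at 18.1, 30.6, 21.5, 12.8 and 25.2 RPM, and each level overlapped the next in order. In pig it had only 10, 16, 7, 12 and 3 reads, or 2.96, 3.87, 2.21, 4.00 and 0.804 RPM, and the counts were too low to order the stages except that the 2-4 cell interval (2.38 to 6.28) lay just above the blastocyst one (0.274 to 2.37). The cow difference from oocyte to blastocyst was 0.46, and that in pig was -1.13 (-2.34 to 0.37).

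Within the cow libraries the Aurora genes shifted against each other. The ratio of AURKB to AURKC reads was 0.349 in the oocyte library (0.271 to 0.446), 0.240 at the 2-4 cell stage (0.197 to 0.290), 1.38 at the 8-16 cell stage (1.03 to 1.84), 1.72 in morulae (1.07 to 2.83) and 1.32 in blastocysts (1.12 to 1.55). The first 2 stages lay below the last 3 with no overlap. The ratio of AURKA to AURKC was 30.6, 20.5, 38.7 and 24.1 over the first 4 stages and 3.90 (3.41 to 4.48) in blastocysts, a 7.83-fold drop over the whole course.

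The other subunits of the cohesin ring, with the genes that load, release, guard and modify it, were looked at as a list of 16. From oocyte to blastocyst 5 of 16 rose and 4 fell in cow, against 21.8% and 18.4% of all genes, with a list median of -0.52. In pig 1 of 15 compared genes rose and 3 fell, against 26% and 19.2%, with a median of -0.24. SMC3, another SMC protein of the ring, fell 8.31-fold in cow (7.92 to 8.72), from 1327 to 160 RPM, and was not called in pig. ESCO2, an acetyltransferase that establishes cohesion in S phase, fell 17.4-fold in cow (15.8 to 19.2) and 50.7-fold in pig (41.1 to 63.3). SGO1, which shields centromeric cohesin, fell 15.7-fold in cow (14.5 to 17.01), from 829 to 52.7 RPM, and 12.6-fold in pig (8.89 to 18.5), from 115 to 9.12 RPM.

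Rising genes of that list included CDCA5 (sororin, which stabilises cohesin), with cow values of 11.2 and 62.3 RPM and pig values of 3.26 and 22.5 RPM. In pig CDCA5 was the one gene of the list called higher, and it was not called with a pseudocount of 5 RPM or quantile normalisation. HDAC8, the deacetylase that recycles SMC3, rose in cow and had 4.26 RPM in oocytes, 899 RPM in morulae and 729 RPM in blastocysts; its cow span overlaps a U6 gene on the other strand. RAD21L1, another germline kleisin, had 0 reads in the cow oocyte library, 7.55 RPM at the 8-16 cell stage, 4 reads in the morula library and 36.7 RPM in blastocysts, at least 60.4 times the oocyte limit. In pig RAD21L1 had 6 reads at the 2-4 cell stage and 0 reads in the other libraries.

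Checkpoint and kinetochore genes outside the 10 had a lower median than all genes in both species. This list was chosen with earlier results of these data known, so the comparison is descriptive only. In cow 8 of 15 fell and 1 rose from oocyte to blastocyst, against 18.4% and 21.8% of all genes, with a median of -2.09. In pig 2 of 14 fell and 0 rose, against 19.2% and 26% of all genes, with a median of -0.90. In cow MAD2L2, a relative of MAD2L1 best known from DNA repair, fell 15.4-fold (11.7 to 20.5) and KNTC1, a subunit of the RZZ complex at kinetochores, fell 11.07-fold (10.3 to 11.9). SPC24, a subunit of the NDC80 complex, had 1 read in the cow oocyte library and 49.4 RPM in the blastocyst library, a ratio of 244 (43.6 to 9638). In pig NDC80 fell 11.2-fold (8.94 to 14.3), from 247 to 22.0 RPM, and its span overlaps a small nucleolar RNA gene. PLK1, a mitotic kinase, fell in both species, 5.80-fold in cow (5.14 to 6.56) and 8.90-fold in pig (6.88 to 11.7).

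Partners and activators of the Aurora kinases formed a list of 8. In cow 3 of 7 fell and 1 rose, with a median of -1.59, against 18.4% of all genes lower and 21.8% higher. In pig 3 of 7 fell and 0 rose, with a median of -1.76, against 19.2% lower and 26% higher. CDCA8 (borealin), a subunit of the chromosomal passenger complex, fell 12.02-fold in cow (601 to 49.99 RPM) and 14.5-fold in pig (164 to 11.3 RPM). HASPIN, the kinase whose mark on histone H3 brings that complex to centromeres, fell 17.2-fold in cow (13.1 to 22.96) and at least 21.3-fold in pig, where the blastocyst library had 0 reads. The span of HASPIN overlaps that of ITGAE on the other strand in both tables. RCC2, which helps to place the complex, rose in cow from 2.23 to 43.1 RPM.

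Genes that control anaphase were called in both directions, at counts near the shares of all genes. In cow 2 of 11 rose and 3 fell, against 21.8% and 18.4%, with a median of 0.08. In pig 2 of 10 rose and 2 fell, against 26% and 19.2%, with a median of -0.53. FBXO5 (EMI1), an inhibitor of the anaphase-promoting complex, fell 45.8-fold in cow (40.6 to 51.9) and 4.12-fold in pig (3.52 to 4.84), where its difference of -2.02 was just past the threshold and was not called with a pseudocount of 5 RPM, with scaling to non-mitochondrial gene reads or at equal depth. PTTG1 (securin), the inhibitor of separase, fell 24.4-fold in cow (21.8 to 27.4), from 596 to 24.4 RPM. CDC23, a subunit of the anaphase-promoting complex, rose in both, with cow values of 7.30 and 35.96 RPM and pig values of 2.37 and 26.0 RPM, and in pig its span overlaps KIF20A. The cow call of CDC23 was lost with a pseudocount of 5 RPM and with median scaling. CDC16, of the same complex, rose 7.18-fold in cow, and CDC27 of that complex fell 9.87-fold in cow and 6.19-fold in pig. CDC20, its activator and the target of the checkpoint, rose from 12.7 to 74.3 RPM in pig, where its span overlaps ELOVL1.

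Of the genes of meiotic prophase, which build the synaptonemal complex and recombine chromosomes long before the oocyte is full grown, 3 of 12 fell and 0 rose in cow, against 18.4% and 21.8% of all genes, with a median of -0.97. In pig 3 of 11 fell and 1 rose, against 19.2% and 26% of all genes, with a median of -1.55. These counts are from oocyte to blastocyst and hide the course between. Between 2-4 and 8-16 cells, 3 of 12 cow genes rose and 2 fell, against 12.6% and 14.6% of all genes. The cow list median at that step was 1.53. From 8-16 cells to the morula, 2 of 11 pig genes rose and 3 fell, against 12% and 11.3%. SYCP1, a filament protein of the synaptonemal complex, fell 16.5-fold in cow (12.8 to 21.6), where its span overlaps 4 other genes, and 10.96-fold in pig (6.19 to 21.1). MLH3, a crossover factor, fell 9.74-fold in cow (7.90 to 12.1). HORMAD2, a chromosome axis protein, fell at least 11.04-fold in pig, a call lost with a pseudocount of 5 RPM. SYCE1, of the same complex as SYCP1, had 1 read in the pig oocyte library and 4.83 RPM in the blastocyst library, a ratio of 16.3 (2.57 to 679). SYCE1 was the one gene of the list called higher in pig from oocyte to blastocyst. It was not called with a pseudocount of 5 RPM, a minimum of 5 RPM, median scaling or quantile normalisation.

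**Figure D4:**
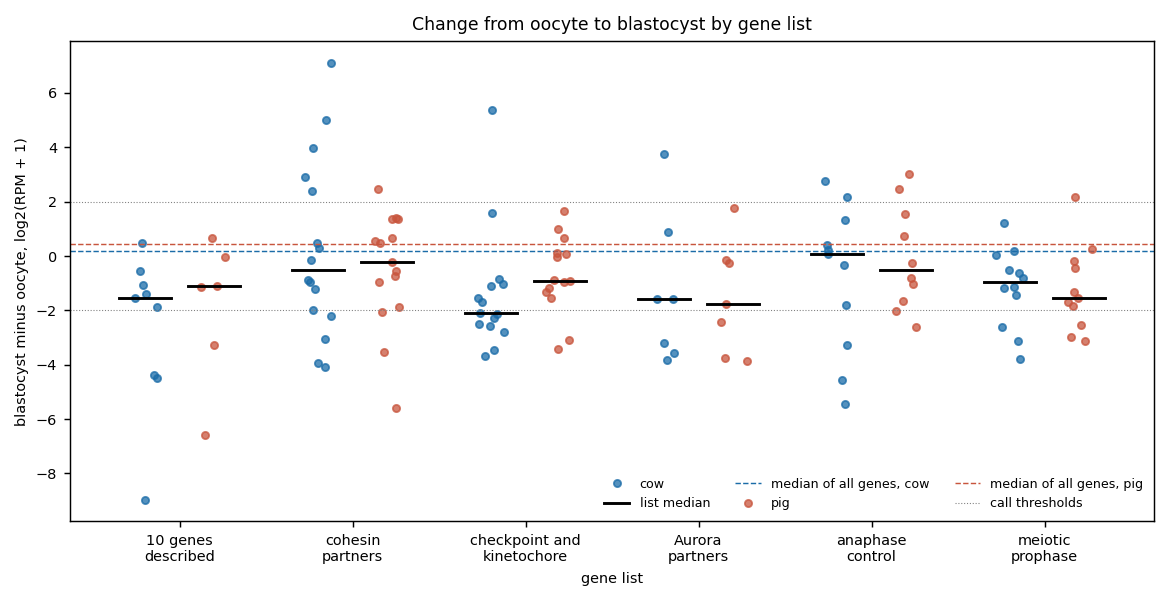
Difference of log2(RPM + 1), blastocyst minus oocyte library, for each compared gene (points) of the 10 genes described and of the 5 related lists, cow in blue and pig in red; black bars are list medians, dashed lines the medians of all compared genes (0.18 in cow, 0.43 in pig) and dotted lines the thresholds of -2 and 2. SMC1B is the lowest point in both species, at -8.96 and -6.58, and the bars of 11 of the 12 lists shown are below 0.

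The shape of each gene over the stages was compared with all 6279 shared symbols that reached 10 RPM in both species, by the Euclidean distance between log2(RPM + 1) values centred within each species over the 10 libraries. Closest to SMC1B were FBXO43 (distance 2.44) and TMEM106A (2.52), and closest to STAG3 were CASTOR1 (1.82) and RBM38 (1.88). RAD21 was closest to GTF2A1 (0.76) and CNBP (0.80), BUB1 to ICMT (0.84) and RNF145 (1.11), and MAD2L1 to TAF2 (0.90) and TRMT6 (0.96). Among the members themselves RAD21 and MAD2L1 were the nearest pair (1.24), and SMC1B and BUB1 the farthest (9.24). These distances describe 1 library per stage and carry no test.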

How the data were processed

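RNA was extracted and amplified with kits for very small inputs, and libraries took 8 cycles of PCR, per the labels' protocols. The submitters' processing notes name Trim Galore 0.6.4, HISAT2 2.1.0 and the builds UMD3.1 and Sscrofa11.1. The counting method, annotation, strand handling and treatment of duplicate or multiply mapped reads are not given in the sources used here. The authors deposited log2 values in 1 table per species. On their scale 1 unit before the log is 1 read per 1000000 (RPM): all values of up to 100 reads were whole multiples of 1 read within 0.02 of a read, and 0 reads was written as 0.9 of a read. Reads are not independent molecules, so intervals cover counting error only.

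Reads were recovered from these steps. Differences used log2(RPM + 1) with 0 reads as deposited. Level intervals are Wilson, and those of folds and ratios are exact binomial (Clopper-Pearson). A fold against 0 reads used the floor of 3 reads. Genes from other lists are the 2 that rose and the 2 that fell most among called ones in each species, plus the paired cohesin genes. SMC3, CDCA5, PLK1 and CDC27 in cow are named beyond that rule, and ATP1B1, FIGLA, FOXL2 and PTGS2 after their values were seen. The members and lists were chosen with earlier results of these data known. The call was tested on simulated data. Python 3.11.15, numpy 2.4.6, pandas 2.3.3 and scipy 1.17.1 were used. Alternatives changed the pseudocount, the minimum, the scaling, the depth and the threshold.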

Additional observations from a re-analysis of the deposited data

Results flagged for a closer look

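BUB1 was the one member whose levels in the oocyte and blastocyst libraries moved in opposite directions in the 2 species beyond counting error, with a difference of -1.88 in cow and 0.66 in pig on the log2(RPM + 1) scale. Each species had 1 library a stage, and the difference between species was not tested.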

How the results depend on the processing

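None of the differences of members from oocyte to blastocyst that were called changed sign under the 10 alternatives. Only 6 of these (pseudocount, scaling and depth) can move the difference of a gene with reads in both libraries, and under them 71 of 90 member differences, called or not, stayed within the counting interval. A threshold of 1 raised the counts of called members most, but from oocyte to blastocyst it also called 32.6% of all cow genes lower and 37.8% higher (pig: 31.2% and 41.3%). In cow it gave 1 higher (AURKC) from oocyte to the 2-4 cell stage. The next 3 steps gave 4 lower, then 3 lower and 1 higher (BUB1B), then 3 lower and 1 higher (AURKC). Over the whole cow course it gave 7 of 9, all lower. In pig it gave 2 lower at the first step and 5 lower at the step to the blastocyst. The pig step to the morula gave 2 lower and 3 higher (RAD21, BUB1 and MAD2L1), against 25.5% and 30.9% of all genes. Over the whole pig course it gave 4 of 6, all lower. At single steps it called 2.34% to 37.3% of all cow genes lower and 9.62% to 27.4% higher. For pig genes these shares were 5.2% to 31.6% lower and 11.7% to 30.9% higher. For the other lists it gave 14 of 15 checkpoint and kinetochore genes (12 lower) and 7 of 12 meiotic prophase genes (6 lower) in cow. In pig it gave 8 of 15 cohesin partners (4 lower), 6 of 14 checkpoint and kinetochore genes (5 lower), 5 of 7 Aurora partners (4 lower), 7 of 10 anaphase genes (4 lower) and 8 of 11 meiotic prophase genes (7 lower). Scaling to non-mitochondrial gene reads and median scaling each left 1 called cow member between 2-4 and 8-16 cells (AURKC), and median scaling gave 1 called pig member between 8-16 cells and the morula (SMC1B, -2.02). A pseudocount of 5 RPM left 1 called pig member at the last step and 1 over the whole course, and 1 meiotic prophase gene in pig. Scaling moved the median of all genes from oocyte to blastocyst from 0.18 to between -0.02 and 0.59 in cow, and from 0.43 to between 0.02 and 0.53 in pig, so a change of scale alone can give single differences of that size. Setting 0 reads to 0 RPM and the rank at equal depth were chosen after seeing the data, and neither moved a value past its limit. No paired analysis was possible because each group had 1 library. Depth leaves REC8 without an order of stages in both species, and AURKB in pig with an order for the 2-4 cell and blastocyst libraries only.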
